A study of Mus musculus with 27 samples.

Results

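Interleukin-21 (IL-21) and interleukin-4 (IL-4) were set directly against each other in primary naive B cells from the spleens of wild-type mice after 6 h of culture. Both groups also received anti-CD40 antibody (clone HM40-3, 1 µg/mL), which stands in for the CD40 ligand of a helper T cell. The first group held 3 libraries with IL-21 at 50 ng/mL and the second 3 libraries with IL-4 at 12.5 ng/mL, so 6 of the series' 27 libraries carry the contrast. Reference groups of 3 libraries each were anti-CD40 alone at 6 h, anti-CD40 with both cytokines at 6 h, and the same IL-21 and IL-4 groups at 24 h. The 2 cytokines were each used at a single dose, and the doses differ. Polyadenylated RNA was measured as TPM, a share of all transcripts that is corrected for their length. Genes entered the comparison if they reached 1 TPM in at least 3 of the 27 libraries, which kept 12147 of 35604 listed genes.

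IL-4 and IL-21 belong to the family of cytokines whose receptors share the common gamma chain, encoded by Il2rg, and both signal through JAK1 and JAK3. The IL-4 receptor is known chiefly for activating STAT6, which drives CD23, MHC class II and transcription of the IgG1 and IgE constant genes. The IL-21 receptor is known chiefly for activating STAT3, which takes part in germinal centre and plasma cell responses, and IL-21 can also promote death of B cells. Genes that both receptors reach include feedback inhibitors of the JAK kinases.

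Differences are given as IL-21 minus IL-4 on the log2(TPM + 1) scale, ± standard error (SE) with n = 3 libraries per group, and values in single libraries are listed in the order of replicates 1, 2 and 3. The log2(TPM + 1) scale understates changes of low genes. The threshold for a call was 0.05 on the adjusted p of limma (Benjamini-Hochberg over all tested genes), and "higher", "lower", "rose" and "fell" refer to called genes unless a value is given as not called. The labels do not name the mouse or culture behind a replicate number, which means that the p-values rest on the spread among these libraries and that this spread may be technical.

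Correlations between libraries were 0.95 or above within a group and 0.924 to 0.959 between the groups. Mitochondrially encoded transcripts made up 6.91% to 10.63% of the listed TPM with IL-4 and 7.27% to 10.91% with IL-21, and in each group replicate 3 was the low one. Between 9912 and 10521 genes reached 1 TPM with IL-21, against 9498 to 9755 with IL-4. The summed level of 11 T cell markers was 15.18 to 17.06 TPM with IL-21 and 10.09 to 13.34 with IL-4. The defining T cell gene Cd3e was at 0.0304 to 0.0903 TPM with IL-4 and 0.333 to 0.821 TPM with IL-21, below the filter and so not tested. Cd4 and Cd8a stayed at or below 0.103 TPM in all 6 libraries. Of the 11 markers, Trac rose from 0.678, 0.68 and 0.914 TPM with IL-4 to 3.19, 5.23 and 4.15 TPM with IL-21. Summed erythroid and platelet markers were also higher with IL-21, at 160.55 to 202.73 against 88.0 to 141.45 TPM, although 0 of 7 were called (1 at an unadjusted p below 0.05). Summed macrophage markers reached 8.89 to 10.38 TPM with IL-21 and 7.28 to 8.33 with IL-4, and 0 of 5 tested were called (0 at an unadjusted p below 0.05). Dendritic cell markers (49.62 to 101.4 TPM with IL-4, 59.75 to 100.27 with IL-21, 0 of 2 called, 1 at an unadjusted p below 0.05) and NK cell markers (at most 2.49 TPM, 0 of 1 called or below 0.05 unadjusted) did not differ by a called amount, and all 7 neutrophil markers were at 0 with IL-4 and summed to at most 0.61 TPM with IL-21. Most of the dendritic cell sum was Bst2 (means of 62.9 TPM with IL-4 and 75.1 with IL-21), which is also in the list of interferon-stimulated genes. The dendritic cell markers Flt3, Xcr1, Clec9a, Siglech and Cd209a were below the filter and so not tested. Of 7 B cell markers, Ms4a1, Cd79b and Pax5 were lower with IL-21 and 4 were not called. The part of these differences in the results was not tested. In bulk RNA, fewer cells of a type and less RNA per cell cannot be told apart.

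IL-21 and IL-4 left 1019 genes at different levels (8.39% of 12147), 681 of them higher with IL-21 (5.61%) and 338 higher with IL-4 (2.78%). At an unadjusted p below 0.05 there were 2120. At least 2-fold differences were called for 691 genes (5.69%), 438 in favour of IL-21 (3.61%) and 253 in favour of IL-4 (2.08%). The excess towards IL-21 lay in low genes: 392 of its 681 genes stayed under 5 TPM even with IL-21, while 276 of the 338 genes higher with IL-4 reached 5 TPM. With a filter of 5 TPM in at least 3 libraries the split was 294 higher and 289 lower, and median-of-ratios rescaling gave 751 higher and 519 lower. With no filter it was 2423 and 391. The median difference of all tested genes was 0.07.

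**Figure D1:**
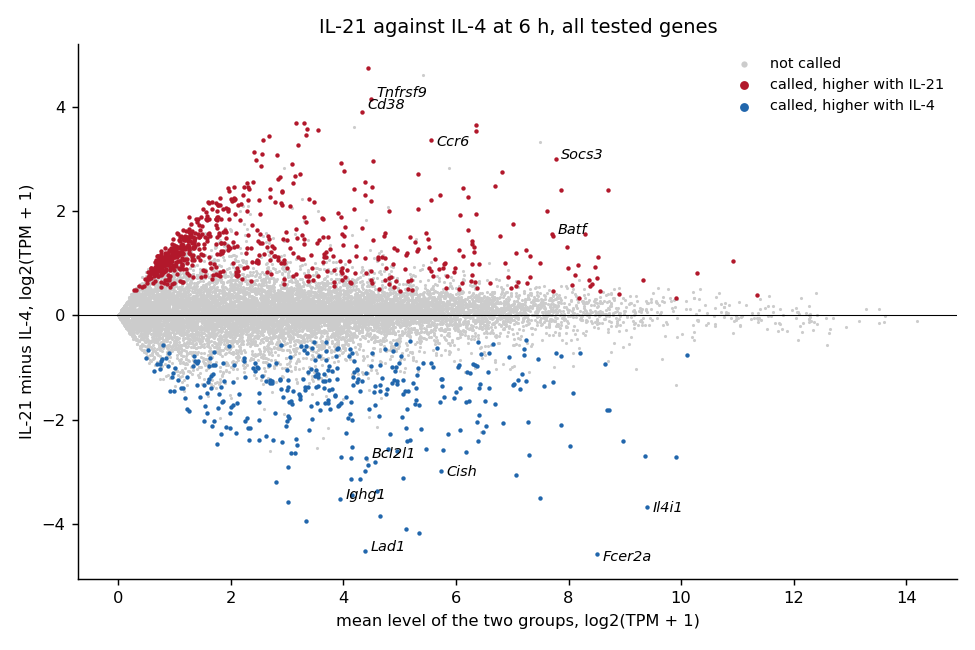
Each point is 1 of 12147 tested genes; the x axis gives the mean level of the 2 groups and the y axis the IL-21 minus IL-4 difference, both on the log2(TPM + 1) scale. Red points are the 681 genes called higher with IL-21, many of them at low levels on the left, and blue points the 338 called higher with IL-4, down to Fcer2a at -4.58.

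Among named genes of at least 5 TPM whose libraries did not overlap, Tnfrsf9 and Cd38 had the largest rises with IL-21. Tnfrsf9 (4-1BB, a costimulatory receptor of the tumour necrosis factor family; chr4:150914562-150946102, GRCm38) stood at 1.24, 2.31 and 0.864 TPM with IL-4 and 47.5, 42.1 and 35.1 TPM with IL-21, a difference of 4.14 ± 0.26 (adjusted p = 2.3e-10). Cd38, an ectoenzyme that consumes NAD (chr5:43868553-43912375), was at 2.22, 1.31 and 1.14 TPM against 41.1, 38.1 and 30.9 TPM (3.90 ± 0.20, adjusted p = 3.83e-12). For both genes anti-CD40 alone lay between the cytokines, at 4.75, 5.27 and 3.29 TPM for Tnfrsf9 and 7.53, 4.96 and 4.51 TPM for Cd38, and both effects were called: IL-21 raised and IL-4 lowered them.

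Il18r1, Il1r1, Il1r2 and Il1a were also among the 12 largest rises. Il18r1, a chain of the IL-18 receptor (chr1:40465552-40500854), was at 0.0535, 0.049 and 0.093 TPM with IL-4 and 12.6, 11.5 and 8.05 TPM with IL-21 (3.44 ± 0.19, adjusted p = 1.59e-11). Il1r1, the signalling IL-1 receptor (chr1:40225080-40317257), was nearly silent with IL-4 at 0.0152, 0.0478 and 0.0906 TPM and reached 11, 9.04 and 9.59 TPM with IL-21 (3.37 ± 0.15, adjusted p = 3.91e-13). Il1r2, a decoy receptor that binds IL-1 without signalling, rose from 1.25, 0.586 and 0.387 to 15.6, 18.7 and 12.3 TPM (3.26 ± 0.38, adjusted p = 2.33e-06). Il1a, the gene of the IL-1 alpha ligand, went from 0.0407, 0.0794 and 0.121 to 8.11, 8.52 and 8.88 TPM (3.14 ± 0.17, adjusted p = 1.59e-11). Il1r1 was also near 0 with anti-CD40 alone (0.0538, 0.144 and 0.0876 TPM), whereas Il1r2 was at 6.89, 10.1 and 3.77 TPM there: IL-4 lowered it (-2.13 ± 0.38, adjusted p = 0.000748), and its difference between IL-21 and anti-CD40 alone missed the threshold (1.13 ± 0.38, adjusted p = 0.0536).

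Ccr6, the receptor for the chemokine CCL20 (chr17:8236043-8257141), was at 11.6, 5.59 and 5.31 TPM with IL-4 and 113, 58.4 and 80.8 TPM with IL-21 (3.35 ± 0.39, adjusted p = 2.79e-06). Its level with anti-CD40 alone was 73.7, 40.7 and 38 TPM, so the gap came with a fall under IL-4 (-2.62 ± 0.39, adjusted p = 0.000114) while the IL-21 effect was not called (0.73 ± 0.39, adjusted p = 0.275). Inside the cell, Id2, an inhibitor of E-protein transcription factors (chr12:25093799-25097140), was at 11.8, 13.1 and 11.1 TPM against 160.3, 147 and 141 TPM (3.53 ± 0.13, adjusted p = 3.16e-14). Gem, a small GTP-binding protein of the RGK family, was at 11.5, 11 and 10.8 TPM against 154, 146 and 151 TPM (3.65 ± 0.15, adjusted p = 2.66e-13). These 2 genes had close replicates within each group. Their standard errors, 0.13 for Id2 and 0.15 for Gem, rest on the spread pooled over all groups of the series. Ier5l (0.489, 0.787 and 0.427 against 21.6, 13.1 and 19.2 TPM, 3.58 ± 0.24) and Epb41l4b (0.816, 0.693 and 0.485 against 19.8, 13.3 and 19.4 TPM, 3.46 ± 0.24) complete the 12 largest rises together with Socs3, described with the feedback genes. The 12 were chosen by size with no overlap between groups, so their separation is a description. Over all tested genes, the libraries of the 2 groups did not overlap in 26% of cases.

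The largest falls with IL-21, which are the genes highest with IL-4, were led by Fcer2a, the gene of CD23, a low-affinity receptor for IgE (chr8:3681737-3694175). Its level was 1300.0, 492 and 305 TPM with IL-4 and 44.2, 20.7 and 13.7 TPM with IL-21 (-4.58 ± 0.58, adjusted p = 7.92e-06). With anti-CD40 alone it was already 765, 325 and 240.2 TPM, a range that overlaps the IL-4 libraries. The IL-4 effect was not called (0.57 ± 0.58, adjusted p = 0.853), and IL-21 lowered the gene by itself (-4.01 ± 0.58, adjusted p = 4.32e-05). Replicate 1 was the highest of 3 in each of these groups. Each IL-4 library was above the anti-CD40 library of the same replicate number, and the fit did not pair libraries by number.

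Il4i1, a secreted oxidase of aromatic amino acids named for its induction by IL-4 (chr7:44816387-44840809), was the most abundant of the large falls at 1942, 1158 and 661 TPM with IL-4 and 122, 85.5 and 66.9 TPM with IL-21 (-3.67 ± 0.42, adjusted p = 1.81e-06). Unlike Fcer2a it moved both ways from anti-CD40 alone (503, 277 and 196 TPM), up with IL-4 (1.92 ± 0.42) and down with IL-21 (-1.75 ± 0.42). Slc2a6, a member of the glucose transporter family, was at 118, 72.7 and 38.4 TPM against 3.99, 3.08 and 1.93 TPM (-4.16 ± 0.42, adjusted p = 2.79e-07). Id1, a relative of Id2, showed the reverse of Id2's pattern, at 14.7, 13.7 and 13.1 TPM with IL-4 and 0.958, 0 and 0 TPM with IL-21 (-3.57 ± 0.27, adjusted p = 3.72e-09), with 2 IL-21 libraries listed at 0.

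Lad1, Dock10 and Akap2 were at most 3.41 TPM in any IL-21 library. Lad1 (ladinin) was at 41.6, 34.2 and 41.2 TPM with IL-4 and 0.797, 0.795 and 0.682 TPM with IL-21 (-4.50 ± 0.31, adjusted p = 5.78e-10). Dock10, a guanine nucleotide exchange factor, was at 44.8, 53.3 and 31.5 TPM against 3.41, 3.2 and 3.06 TPM (-3.36 ± 0.31). Akap2, an anchoring protein for protein kinase A, was at 64, 61.9 and 68.3 against 2.56, 2.99 and 3.05 TPM (-4.09 ± 0.31). Snn kept a clear level with IL-21, at 29.7, 26.2 and 29.2 TPM against 346, 327 and 315 TPM with IL-4 (-3.49 ± 0.23). The differences of St7 and Kctd14 were -3.85 ± 0.36 and -3.44 ± 0.21. Tmsb15b2 was at 9.17, 19.9 and 25.2 TPM with IL-4, listed at 0 in 2 IL-21 libraries, and lost its call without replicate 2 (adjusted p = 0.0511) or replicate 3 (adjusted p = 0.0631) of IL-4. It has close paralogs, so its reads may be shared. The Ig gene Ighg1, the twelfth of these falls, is described with the constant genes.

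**Figure D2:**
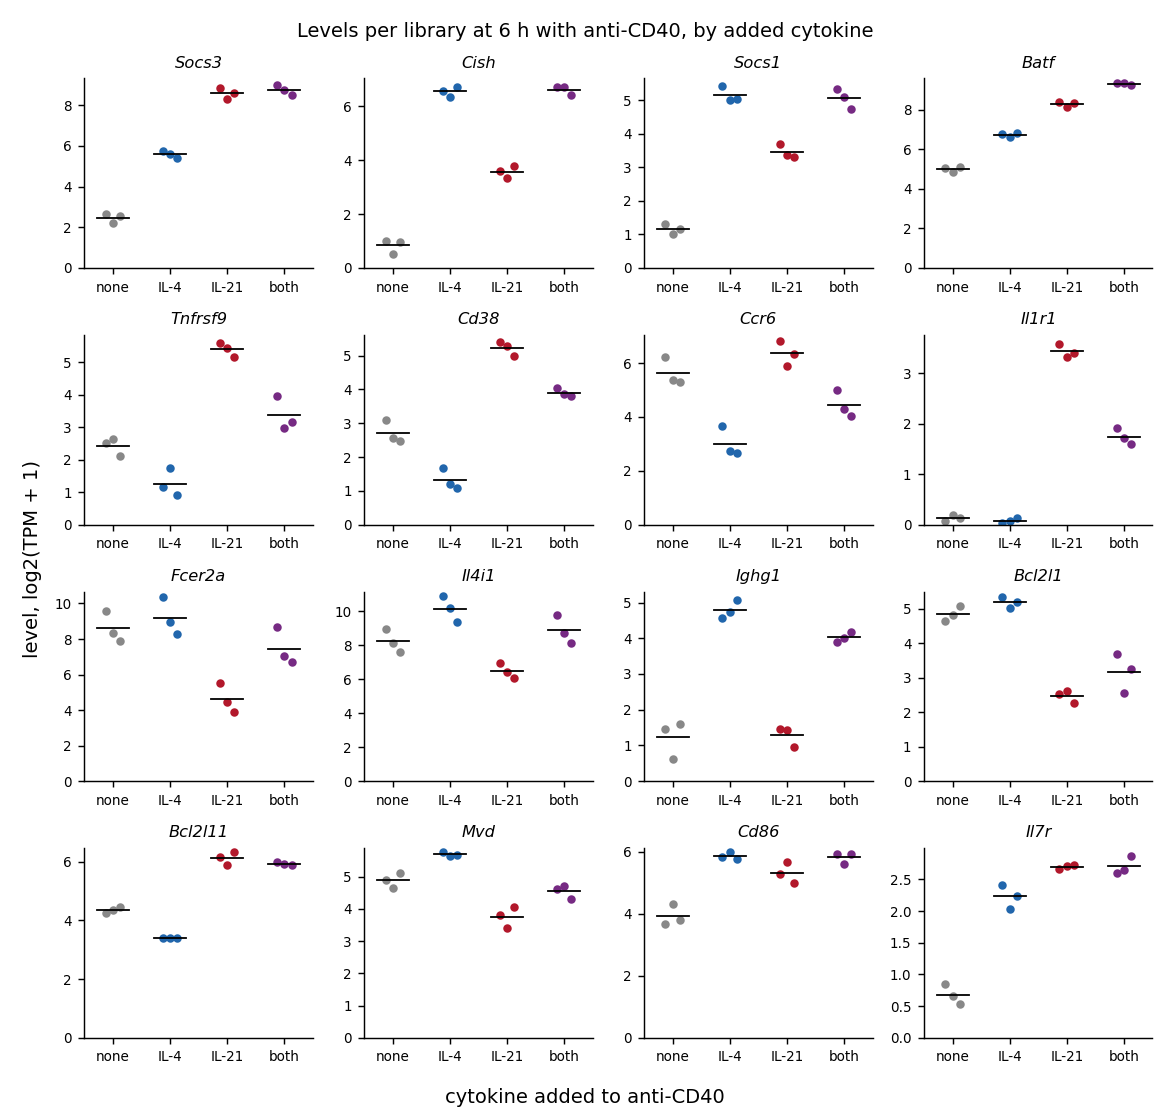
Levels on the log2(TPM + 1) scale in each of 3 libraries per group at 6 h with anti-CD40, for 16 genes named in the text; points are libraries (replicates 1 to 3 from left to right) and lines are group means. The x axis names the added cytokine (none, IL-4, IL-21 or both). Socs3 and Batf are highest where IL-21 is present, Cish and Socs1 where IL-4 is present, and Cd86 and Il7r are raised by each cytokine.

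Among 19 receptor chains, JAK kinases and STAT factors, 3 were higher with IL-21, 3 were lower and 13 were not called. The count of 6 is above the 8.39% of all genes. All 6 differed at least 2-fold, with extremes of -2.25 (Il9r) and 1.43 (Il2ra). Il21r, the specific chain of the IL-21 receptor (chr7:125603429-125633570), was at 130.5, 78.3 and 63.2 TPM with IL-4 and 266, 189.5 and 179.5 TPM with IL-21 (1.26 ± 0.36, adjusted p = 0.0271), and anti-CD40 alone lay close to IL-4 at 119, 70.1 and 67 TPM. The IL-4 receptor chain Il4ra had 105, 54.1 and 29.9 TPM with IL-4 and 53.5, 28.7 and 24.5 TPM with IL-21; the groups overlapped and the difference was not called (-0.71 ± 0.45, adjusted p = 0.496, 95% interval -1.65 to 0.23). The shared chain Il2rg was not called either (0.17 ± 0.52, interval -0.91 to 1.25), with overlapping libraries of 15.2, 12.6 and 2.6 and 13.3, 7.44 and 8.32 TPM.

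Il2ra, the alpha chain of the IL-2 receptor, rose from 51.7, 37.2 and 34.8 to 135, 102 and 100.5 TPM (1.43 ± 0.22, adjusted p = 0.000104), and Il9r, the IL-9 receptor, fell from 31.1, 30.8 and 17.6 to 6.03, 3.83 and 4.21 TPM (-2.25 ± 0.33, adjusted p = 5.41e-05). The STAT genes divided by cytokine. Stat3 was at 50.0, 38.2 and 45.5 TPM with IL-4 and 124, 87 and 128 TPM with IL-21 (1.31 ± 0.34, adjusted p = 0.0151). Stat5a was at 77.5, 74.3 and 78.5 TPM against 31.8, 24.3 and 32.5 TPM (-1.36 ± 0.33, adjusted p = 0.0084), and Stat5b showed a difference of -1.34 (32.6 against 12.4 TPM, means). Stat6, the chief STAT of IL-4, was not called at -0.27, nor were Jak1 (0.43) and Jak3 (0.42). The Il21r call was lost without replicate 1 (adjusted p = 0.121) or 2 (0.0582) of IL-21 or replicate 2 (0.0957) or 3 (0.15) of IL-4. The Stat3 call was lost without replicate 1 (0.0594) or 3 (0.063) of IL-21 or replicate 2 of IL-4 (0.0707), and that of Stat5a without replicate 2 of IL-21 (0.053). Stat5a and Stat3 lie end to end on opposite strands with overlapping ends, and the use of strand in counting is not given in the sources used here.

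Both cytokines induced feedback inhibitors, but with opposite preference. Socs3, an inhibitor of JAK kinases that acts at STAT3-activating receptors (chr11:117966079-117970047), was at 5.21, 3.7 and 4.84 TPM with anti-CD40 alone, 53.2, 48 and 40.8 TPM with IL-4 and 459.9, 316 and 385 TPM with IL-21, a direct difference of 3.00 ± 0.27 (adjusted p = 7.24e-08). Cish, a feedback inhibitor best known downstream of STAT5 (chr9:107296026-107302784), was at 1.02, 0.444 and 0.966 TPM alone, 94.3, 80.9 and 105 TPM with IL-4 and 11.2, 9.12 and 12.8 TPM with IL-21 (-2.97 ± 0.31, adjusted p = 4.28e-07). Socs1, a broad JAK inhibitor (chr16:10782240-10785536), was at 1.5, 1.04 and 1.26, 42.1, 31.4 and 32.1 and 11.9, 9.35 and 8.98 TPM in the same order of groups (-1.71 ± 0.32, adjusted p = 0.000823). In all 3 genes each cytokine was above anti-CD40 alone, and the groups did not overlap.

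Nfil3, a transcription factor placed among IL-21 and STAT3 response genes, was the exception in that list. It was at 1.65, 0.972 and 1.61 TPM alone, 40.4, 29.2 and 37.8 TPM with IL-21 and 122, 102 and 113 TPM with IL-4, and so was lower with IL-21 (-1.64 ± 0.28, adjusted p = 0.00033). Ptpn1, a tyrosine phosphatase that acts on JAK and STAT proteins, went the other way, at 59.3, 45.8 and 62.1 TPM with IL-4 and 221, 111 and 272 TPM with IL-21 (1.75 ± 0.33, adjusted p = 0.000877). Over the 19 genes listed as shared gamma-chain feedback and survival genes, 3 were higher with IL-21 (against 5.61% of all genes), 2 lower (2.78%) and 14 not called, with a median of 0.16. The uncalled members included the kinase Pim1 (322, 351 and 319 against 292, 288 and 329 TPM, -0.13 ± 0.29, interval -0.73 to 0.48), Myc (0.16 ± 0.34, interval -0.55 to 0.87) and Socs2 (0.08 ± 0.46, interval -0.87 to 1.03).

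The promoters of Tnfrsf9 and Fcer2a, which lead the 12 rises and 12 falls, and of the inhibitors Socs3 and Cish are shown because STAT dimers bind a spaced palindrome, TTCNNNGAA for most STATs, while STAT6 is known to favour the same arms, TTC and GAA, with 4 bases between them. The windows run from 250 bases before to 50 bases after an annotated start, from RefSeq on GRCm38.p6, and capitals mark a match to either motif, each of which reads the same on both strands. Tnfrsf9 (chr4:150927749-150928048, plus strand) and Socs3 (chr11:117969317-117969616, minus strand) each held 1 TTCNNNGAA match, Cish (chr9:107296409-107296708, plus strand) held 2, and Fcer2a (chr8:3690812-3691111, minus strand) held 1 match with the 4-base spacing. No capitalised matches overlap each other. Tnfrsf9 has 2 windows and Fcer2a 3, of which the one with a match is shown and the others held none, and no window was printed for Socs1.
Tnfrsf9: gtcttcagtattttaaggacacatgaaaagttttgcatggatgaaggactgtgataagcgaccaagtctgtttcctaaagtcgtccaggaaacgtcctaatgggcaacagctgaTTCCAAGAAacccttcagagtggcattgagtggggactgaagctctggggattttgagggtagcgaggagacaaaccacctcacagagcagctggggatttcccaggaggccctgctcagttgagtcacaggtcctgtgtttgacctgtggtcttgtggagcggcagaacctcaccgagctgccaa
Socs3: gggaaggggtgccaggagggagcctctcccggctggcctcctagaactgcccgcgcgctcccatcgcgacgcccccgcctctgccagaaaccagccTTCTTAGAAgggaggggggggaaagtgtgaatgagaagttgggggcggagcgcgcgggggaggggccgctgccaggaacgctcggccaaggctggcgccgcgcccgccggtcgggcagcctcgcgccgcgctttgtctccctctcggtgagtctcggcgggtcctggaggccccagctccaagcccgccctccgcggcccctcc
Cish: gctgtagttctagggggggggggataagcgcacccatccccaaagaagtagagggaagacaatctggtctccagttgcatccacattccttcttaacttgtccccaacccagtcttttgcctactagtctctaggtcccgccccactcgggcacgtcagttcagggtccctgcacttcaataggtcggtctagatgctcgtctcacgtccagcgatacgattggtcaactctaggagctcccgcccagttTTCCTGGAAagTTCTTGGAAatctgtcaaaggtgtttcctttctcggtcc
Fcer2a: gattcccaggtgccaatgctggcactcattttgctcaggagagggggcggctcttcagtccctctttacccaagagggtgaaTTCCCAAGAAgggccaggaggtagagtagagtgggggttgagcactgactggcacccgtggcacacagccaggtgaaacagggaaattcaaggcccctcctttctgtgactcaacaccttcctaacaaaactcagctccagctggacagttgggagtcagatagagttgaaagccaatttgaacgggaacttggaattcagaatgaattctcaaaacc
Of the tested genes, 8438 had such a window, some with several starts, and 8.52% held TTCNNNGAA and 6.71% held the 4-base spacing. The 4-base spacing was in 28 of 189 genes called at least 2-fold higher with IL-4 (14.8%) and in 21 of 276 called at least 2-fold higher with IL-21 (7.61%). TTCNNNGAA was in 21 of the 189 (11.1%) and in 32 of the 276 (11.6%). Among 56 genes that both cytokines moved alike, each motif was in 6 (10.7%). These shares are descriptions with no test, and a match is not shown to be a bound site.

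In the lists named for one cytokine, most called members were higher with that cytokine. The lists were chosen with earlier results of these data known, so their counts are descriptions. The list of IL-4 and STAT6 response genes had 13 measured members, of which 9 were lower with IL-21 (against 2.78% of all genes), 1 was higher and 3 were not called (median -2.27). The list for IL-21 and STAT3 had 12, of which 8 were higher (against 5.61% of all genes), 1 was lower and 3 were not called (median 1.13). Without replicate 3 of both groups 5 of the 12 were called. Of the 9 in the IL-4 list, Fcer2a, Bcl2l1 and Ccl22 were lowered by IL-21 and had no called IL-4 effect. IL-4 raised the rest of the 9 against anti-CD40 alone. Batf, an AP-1 family factor needed for class switching (chr12:85686669-85709087), was at 32.1, 27.8 and 32.9 TPM alone, 107, 96.1 and 114 TPM with IL-4 and 334, 279.7 and 323 TPM with IL-21 (1.55 ± 0.12, adjusted p = 2.8e-09). Il10, an anti-inflammatory cytokine, was at 1.4, 1.5 and 1.28 TPM with IL-4 and 6.07, 7.78 and 6.97 TPM with IL-21 (1.73 ± 0.20, adjusted p = 1.76e-06). The IL-4 list's exception was Gadd45g, a stress-response gene, at 109, 111 and 103 TPM against 302, 274 and 361 TPM (1.52 ± 0.32, adjusted p = 0.00275).

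The transcription factors of B cell fate split unevenly. Tbx21, which encodes T-bet (chr11:97098071-97115331), was near the floor with IL-4 (0.0782, 0.0978 and 0.464 TPM) and anti-CD40 alone (0.264, 0.23 and 0.704 TPM) and reached 8.99, 6.2 and 10.8 TPM with IL-21 (2.98 ± 0.21, adjusted p = 1.14e-09). In the T-bet and atypical B cell list 4 of 9 were higher (against 5.61% of all genes) and 0 lower. The others were Zbtb32, a repressor (6.09, 4.58 and 3.8 against 32.5, 28 and 28.8 TPM, 2.42 ± 0.23), Fcrl5, an inhibitory receptor (3.35, 3.56 and 2.53 against 18.8, 10.5 and 14.6 TPM, 1.89 ± 0.32), and Zeb2, a repressor named after its value was seen (1.44). Fcrl5 resembled Ccr6, since IL-4 lowered it (-1.52 ± 0.32) and the IL-21 effect was not called (0.37 ± 0.32). The 5 members not called between the cytokines included Itgax, Itgam and Cxcr3, all near the floor. Their means with IL-4 and IL-21 were 0.173 and 0.363 TPM for Itgax, 0.028 and 0.297 for Itgam, and 0.032 and 0.146 for Cxcr3.

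Germinal centre and plasma cell regulators showed smaller or no called differences at 6 h. Bcl6, the master repressor of the germinal centre, was at 17.6, 17.6 and 16.1 TPM with IL-4 and 22.3, 22.4 and 26.2 TPM with IL-21. The libraries did not overlap, but the difference was not called (0.44 ± 0.25, adjusted p = 0.416), and 0 of 9 germinal centre genes were called in either direction (limma, median 0.36; 4 at an unadjusted p below 0.05; 1 called with the replicate block). The Bcl6 difference was called in a fit of only the 6 h and naive libraries (adjusted p = 0.0491). Prdm1, the gene of Blimp-1, which drives plasma cell differentiation, had 0.601, 0.324 and 0.35 TPM against 1.03, 0.869 and 1.97 TPM and just missed the call (0.66 ± 0.21, adjusted p = 0.0584). It was called after median-of-ratios rescaling (adjusted p = 0.0426), with no filter (0.0477) and with no variance trend (0.0496). The call also came without mitochondrial, ribosomal protein and pseudogene transcripts (0.0406) and without replicate 2 of IL-21 (0.0469). Irf4, needed for both fates, was not called (-0.30 ± 0.33, interval -0.99 to 0.38).

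Of 11 measured plasma cell genes, 0 were higher with IL-21 and 3 lower (against 2.78% of all genes). Xbp1, a factor of the secretory apparatus, was at 7.08, 7.02 and 2.28 TPM with IL-4 and 1.08, 0.157 and 0 TPM with IL-21 (-2.15 ± 0.37, adjusted p = 0.00031), with 1 IL-21 library listed at 0. Mzb1, an endoplasmic reticulum chaperone of antibody secretion, was at 294, 259 and 266 TPM against 168, 179 and 148 TPM (-0.73 ± 0.14), a call lost under median-of-ratios rescaling (adjusted p = 0.0644). Slamf7, a surface receptor, had a difference of -0.62 ± 0.17 that was lost without replicate 2 (adjusted p = 0.0767) or 3 (0.141) of IL-21, or replicate 1 (0.16) or 2 (0.0575) of IL-4. With both cytokines Prdm1 was at 2.96, 2.27 and 2.09 TPM and above IL-4 alone (1.27 ± 0.21, adjusted p = 0.000629).

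Genes of mature B cell identity were lower with IL-21 in 4 of 14 cases, higher in 1 and not called in 9 (median -0.43; against 2.78% and 5.61% of all genes). Ms4a1, which encodes CD20 (chr19:11249675-11266241), fell from 353, 409 and 366 TPM with IL-4 to 84.8, 95.2 and 81.8 TPM with IL-21 (-2.09 ± 0.19, adjusted p = 8.7e-08). Cd79b, a signalling chain of the B cell receptor, fell from 1109, 782 and 628 to 189.7, 172 and 109.9 TPM (-2.41 ± 0.24, adjusted p = 2.05e-07). Cr2, the complement receptor CD21, fell from 45.2, 43.2 and 23.3 to 3.93, 4.23 and 3.98 TPM (-2.86 ± 0.31, adjusted p = 9.67e-07). For these 3 genes the anti-CD40 libraries (359.8, 427 and 387, 905, 641 and 447 and 30.9, 26.5 and 23.1 TPM) lay with those of IL-4, and the IL-4 effects were not called.

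Bach2, a repressor that holds back plasma cell differentiation, was the member that was higher with IL-21, at 5.82, 6.89 and 7.18 TPM against 22.7, 19.6 and 29.3 TPM (1.69 ± 0.28, adjusted p = 0.000288). Pax5, the factor that fixes B cell identity, was at 41.5, 37.4 and 50.9 TPM with IL-4 and 18.2, 11.8 and 21.1 TPM with IL-21 (-1.32 ± 0.38, adjusted p = 0.0289). Its call was lost without replicate 1 (adjusted p = 0.0553) or 2 (0.174) of IL-21, or without replicate 1 (0.0752), 2 (0.0518) or 3 (0.116) of IL-4. The summed level of the 7 B cell markers was 1404.97 to 2322.36 TPM with IL-21 and 2299.38 to 3792.25 TPM with IL-4, and its part in these falls was not tested.

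The survival genes of the BCL2 family differed in both arms. Bcl2l11, which encodes the death-promoting protein BIM (chr2:128126038-128162547), was at 18, 19.3 and 20.8 TPM with anti-CD40 alone, 9.44, 9.63 and 9.59 TPM with IL-4 and 71.1, 57.4 and 78.3 TPM with IL-21 (2.72 ± 0.23, adjusted p = 1.53e-08). Bcl2l1, which encodes the protective protein BCL-XL (chr2:152780668-152831728), was at 23.8, 27.2 and 33 TPM alone, 39.7, 31.7 and 35.7 TPM with IL-4 and 4.72, 5.16 and 3.8 TPM with IL-21 (-2.73 ± 0.31, adjusted p = 1.91e-06). With IL-21 the level of Bcl2l11 therefore exceeded that of Bcl2l1 in every library, and with IL-4 the order was the reverse.

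Of 10 anti-apoptotic genes, Bcl2l1 among them, 4 were lower with IL-21 (against 2.78% of all genes), 0 higher and 6 not called (median -0.59). Bcl2a1b fell from 1361, 1770.0 and 1893 to 223, 288 and 256 TPM (-2.70 ± 0.23, adjusted p = 2.4e-08) and Bcl2a1d from 914, 1165 and 1307 to 144, 200.5 and 179 TPM (-2.68 ± 0.24, adjusted p = 4.45e-08). These are near-identical copies of one gene, A1, so the division of reads between them is uncertain and they are not separate evidence. Cflar, an inhibitor of death receptor signalling named after its value was seen, had a difference of -0.80, but unlike Bcl2l1 it was raised by each cytokine against anti-CD40 alone (0.75 with IL-21 and 1.55 with IL-4). Bcl2 (-0.24) and Mcl1 (-0.40) were not called. In the pro-apoptotic list, 2 of 8 were higher (against 5.61% of all genes) and 0 lower, the second being Pmaip1 (NOXA) at 18.9, 23.9 and 25 TPM against 50.4, 52.8 and 63.9 TPM (1.27 ± 0.20, adjusted p = 0.000103).

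Antigen presentation favoured IL-4. Of 11 genes of MHC class II and its loading, 5 were lower with IL-21 (against 2.78% of all genes), 0 higher and 6 not called (median -1.08). The called members were chiefly the loading chaperones. H2-DMa (chr17:34119541-34139101) was at 412, 165 and 145 TPM with IL-4 and 40.5, 23.2 and 16.1 TPM with IL-21 (-3.06 ± 0.49, adjusted p = 0.000139). H2-DMb2 was at 408, 214 and 187 against 64.6, 34 and 27.1 TPM (-2.67 ± 0.42, adjusted p = 0.000129) and H2-DMb1 at 81.7, 78.5 and 41.6 against 18.4, 16.3 and 8.27 TPM (-2.17 ± 0.37, adjusted p = 0.000372), a pair of close copies whose reads may be split. H2-Oa (-1.53) and the class II master activator Ciita (-1.07) were the other called members. The antigen-presenting chains H2-Aa (-1.08), H2-Ab1 (-1.34) and H2-Eb1 (-1.03) and the invariant chain Cd74 (-0.98) had negative differences that were not called; with the replicate block H2-Aa (adjusted p = 0.0334) and H2-Ab1 (0.0234) were called.

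Costimulatory and checkpoint molecules did not share a direction, with 2 of 12 higher with IL-21 (against 5.61% of all genes), 1 lower (2.78%) and 9 not called. Tnfsf4, the OX40 ligand, was at 1.37, 0.843 and 2.12 TPM with IL-4 and 12.9, 10.3 and 11.4 TPM with IL-21 (2.39 ± 0.22, adjusted p = 8.17e-08). Anti-CD40 alone gave 10.4, 7.07 and 7.49 TPM, so IL-4 lowered it (-1.95 ± 0.22) and IL-21 did not change it by a called amount (0.44 ± 0.22). Slamf1, a self-binding adhesion receptor, was at 3.32, 2.46 and 1.96 against 9.65, 8.19 and 5.87 TPM (1.31 ± 0.27), and Cd83, an activation marker, at 1491, 1481 and 1167 against 855, 886 and 714 TPM (-0.75 ± 0.14, adjusted p = 0.000666).

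Chemokines and trafficking genes were called in 7 of 14 cases (against 8.39% of all genes), 4 higher and 3 lower. Ccl22, a chemokine that draws CCR4-bearing T cells, was at 49.7, 42.2 and 46.4 TPM with IL-4 and 8.05, 6.91 and 6.07 TPM with IL-21 (-2.56 ± 0.36, adjusted p = 2.92e-05), and its neighbour Ccl17, with the same receptor, at 3.19, 2.54 and 5.09 against 0.359, 0 and 0 TPM (-2.02 ± 0.23, adjusted p = 2.33e-06). Klf2, a factor that maintains recirculation, was also higher with IL-4, at 73.5, 56.1 and 54.4 against 21.5, 13.9 and 19.3 TPM (-1.71 ± 0.32, adjusted p = 0.000891). Besides Ccr6, the higher members with IL-21 included S1pr1 (1.29) and Ccl3 (1.29).

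Among 9 measured cytokines and tumour necrosis factor ligands, Il10 and Csf1 were higher with IL-21, Ebi3 was lower and 6 were not called, against 8.39% called over all genes. Csf1, the macrophage growth factor, was at 1.09, 0.586 and 0.803 against 5.04, 2.7 and 3.67 TPM (1.37 ± 0.28, adjusted p = 0.00193). Ebi3, a chain of IL-27 and IL-35, was at 20.8, 13.2 and 13.5 against 7.61, 3.96 and 5.41 TPM (-1.35 ± 0.39, adjusted p = 0.0312), a call lost without replicate 2 (adjusted p = 0.168) or 3 (0.0788) of IL-21 or replicate 1 (0.162), 2 (0.0539) or 3 (0.0572) of IL-4. Of 16 genes of the CD40 and NF-kB response, 5 were lower with IL-21 (against 2.78% of all genes), 1 was higher and 10 were not called. The 5 included Ccl22, Cd83, Ebi3, Bcl2a1d and, named after its value was seen, Rel (-0.99). The higher one was Nfkbie, an inhibitor of NF-kB, at 50.9, 49 and 52.9 against 106, 85.9 and 114 TPM (0.98 ± 0.30, adjusted p = 0.0467), whose call was lost without any 1 of the 6 libraries (adjusted p between 0.065 and 0.152). The Nfkbie call was also lost with a pseudocount of 0.1 (0.053), a filter of 5 TPM (0.0558) or no variance trend (0.0542).

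Of 12 immunoglobulin constant genes, 3 were lower with IL-21 (against 2.78% of all genes), 0 were higher and 9 were not called. IL-4 is known to start transcription of the IgG1 and IgE constant genes before class switching. Ighg1 (chr12:113325240-113330523) was at 1.77, 0.543 and 2.03 TPM with anti-CD40 alone, 22.5, 25.9 and 32.9 TPM with IL-4 and 1.76, 1.7 and 0.958 TPM with IL-21 (-3.51 ± 0.42, adjusted p = 4.07e-06). Ighe was at 0.21, 0.264 and 0.804, 4.03, 5.01 and 5.63 and 0.208, 0.267 and 0.159 TPM in the same order (-2.27 ± 0.30, adjusted p = 1.63e-05). In both genes the IL-21 libraries overlapped those of anti-CD40 alone and the IL-21 effect was not called. The other called one was Iglc3, which has near copies (-0.72 ± 0.20) and was lowered by each cytokine against anti-CD40 alone (-1.60 with IL-4 and -2.32 with IL-21); its call was lost under median-of-ratios rescaling (adjusted p = 0.161), without replicate 2 (0.0659) or 3 (0.0867) of IL-21 and without replicate 1 (0.0679) or 2 (0.0996) of IL-4. Ighg2b (0.43) and Ighg2c (0.19) were not called.

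Cholesterol synthesis was the metabolic list with the most called genes: 11 of 18 were lower with IL-21 (against 2.78% of all genes), 0 were higher and 7 were not called (median -1.21). Mvd, an enzyme of the mevalonate pathway, was at 28.9, 24.1 and 33.4 TPM with anti-CD40 alone, 53.3, 48.8 and 50.1 TPM with IL-4 and 13, 9.52 and 15.7 TPM with IL-21 (-1.94 ± 0.29, adjusted p = 8.21e-05). Fdps, which makes farnesyl diphosphate, was at 25.4, 22.5 and 19.1 against 4.99, 6.51 and 6.89 TPM (-1.71 ± 0.39, adjusted p = 0.00549). Dhcr7, of the last steps, was at 11.8, 5.34 and 4.89 against 3.54, 0 and 2.32 TPM (-1.66 ± 0.51), with 1 library at 0 and a call lost without replicate 2 (adjusted p = 0.36) or 3 (0.0504) of IL-21 or replicate 1 (0.25), 2 (0.0706) or 3 (0.0578) of IL-4. Other called members were Idi1 (-1.27), Hmgcs1 (-1.41), Lss (-1.39), Fdft1 (-1.29), Nsdhl (-1.18), Mvk (-1.13) and Cyp51 (-0.95). Anti-CD40 alone lay between the cytokines for this list, with medians of 0.49 for IL-4 and -0.66 for IL-21, and few members passed on their own: 1 rose with IL-4 and 3 fell with IL-21. Without replicate 3 of both groups 8 members were called.

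Glycolysis showed the opposite tilt but on thinner support. Of 14 genes, Ldha (45.7, 28.5 and 34.3 against 91.3, 53 and 74.5 TPM, 0.98 ± 0.27), Pkm (36.4, 28 and 27.6 against 71.7, 42.3 and 63.4 TPM, 0.90 ± 0.25) and the lactate carrier Slc16a1 (0.62 ± 0.18) were higher with IL-21 (against 5.61% of all genes) and 11 were not called (median 0.31). Without replicate 3 of both groups 0 of the 14 were called; Ldha was then at an adjusted p of 0.16, Pkm at 0.243 and Slc16a1 at 0.0973. Ldha and Pkm also lost the call without replicate 1 of IL-21 (0.12 and 0.128), replicate 3 of IL-21 (0.0672 and 0.0918) or replicate 2 (0.121 and 0.094) or 3 (0.0703 and 0.0996) of IL-4. Slc16a1 lost it without replicate 1 (0.109) or 2 (0.211) of IL-21 or 2 (0.0572) or 3 (0.245) of IL-4, and under median-of-ratios rescaling (0.102).

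Of the S phase and MYC target lists 1 member each was called, shares below the 8.39% of all genes. The median difference was 0.1 for the S phase list and 0.31 for the MYC target list, the latter equal to that of glycolysis. Each list had 4 members at an unadjusted p below 0.05 (limma). Against anti-CD40 alone, IL-21 raised 7 of the 18 MYC target genes and IL-4 raised 0, with median effects of 0.72 and 0.37. Of 20 S phase genes, Tyms, the enzyme that makes thymidylate, was lower with IL-21 (29, 31.4 and 23 against 9.03, 8.02 and 11.6 TPM, -1.45 ± 0.22, adjusted p = 7.27e-05) and 19 were not called. Of 18 MYC target and ribosome biogenesis genes, Odc1, the first enzyme of polyamine synthesis, was higher (488, 468 and 508 against 740.3, 777 and 846 TPM, 0.69 ± 0.20, adjusted p = 0.0292) and 17 were not called; without any 1 of the 6 libraries the Odc1 call was lost (adjusted p between 0.0518 and 0.105). Of 12 CDK inhibitors and G1 cyclins, 2 inhibitors were higher with IL-21 (against 5.61% of all genes). Cdkn2d (p19) was at 2.54, 1.8 and 3.76 against 15.4, 13.8 and 19.2 TPM (2.23 ± 0.23, adjusted p = 5.75e-07) and Cdkn1a (p21) at 83, 64.6 and 81.8 against 166, 119 and 183 TPM (1.00 ± 0.25, adjusted p = 0.00939), the latter lost without replicate 3 of IL-21 (0.0579) or replicate 2 of IL-4 (0.061). The Cdkn1a call was also lost with a pseudocount of 0.1 (adjusted p = 0.0516).

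Of 13 p53 targets, 4 were higher (against 5.61% of all genes), 1 lower (2.78%) and 8 not called. Cdkn1a and Pmaip1 were among the 4, with Trp53inp1 (0.85) and the kinase Plk2 (7.33, 5.94 and 7.27 against 16, 15.6 and 23.1 TPM, 1.28 ± 0.24, adjusted p = 0.000923). Sesn1, a stress sensor, was the lower one, at 40.7, 36.3 and 34.6 TPM alone, 13, 14.8 and 12.1 TPM with IL-4 and 5.25, 6.25 and 6.65 TPM with IL-21 (-1.02 ± 0.15, adjusted p = 5.54e-05), so both cytokines lowered it and IL-21 more so. Of 13 interferon-stimulated genes, 3 were lower (against 2.78% of all genes), 0 higher and 10 not called. Isg15, a ubiquitin-like modifier, was at 19.5, 16 and 19.4 against 4.78, 4.53 and 5.84 TPM (-1.67 ± 0.26, adjusted p = 0.000117). Ifit3 had a difference of -1.03 ± 0.19 and Ifit1 one of -0.71 ± 0.19. Both were low in each group, with means of 1.24 TPM (IL-4) and 0.091 (IL-21) for Ifit3 and 1.32 and 0.406 for Ifit1. The Ifit1 call was lost without replicate 1 of IL-21 (adjusted p = 0.0826) or replicate 2 (0.0747) or 3 (0.103) of IL-4. Gbp2 had a positive difference (0.58) that was called only with the replicate block (limma, adjusted p = 0.0367), not in the main fit. Of 14 dissociation and heat stress genes, the AP-1 genes Jun (28.9, 21.4 and 22.9 against 134, 100.2 and 132 TPM, 2.27 ± 0.29, adjusted p = 1.08e-05) and Junb (1.12 ± 0.28) were higher (against 5.61% of all genes) and 12, Fos and the heat shock genes among them, were not called. The Junb call was lost without replicate 1 of IL-21 (0.068) or replicate 3 of IL-4 (0.0594).

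**Figure D3:**
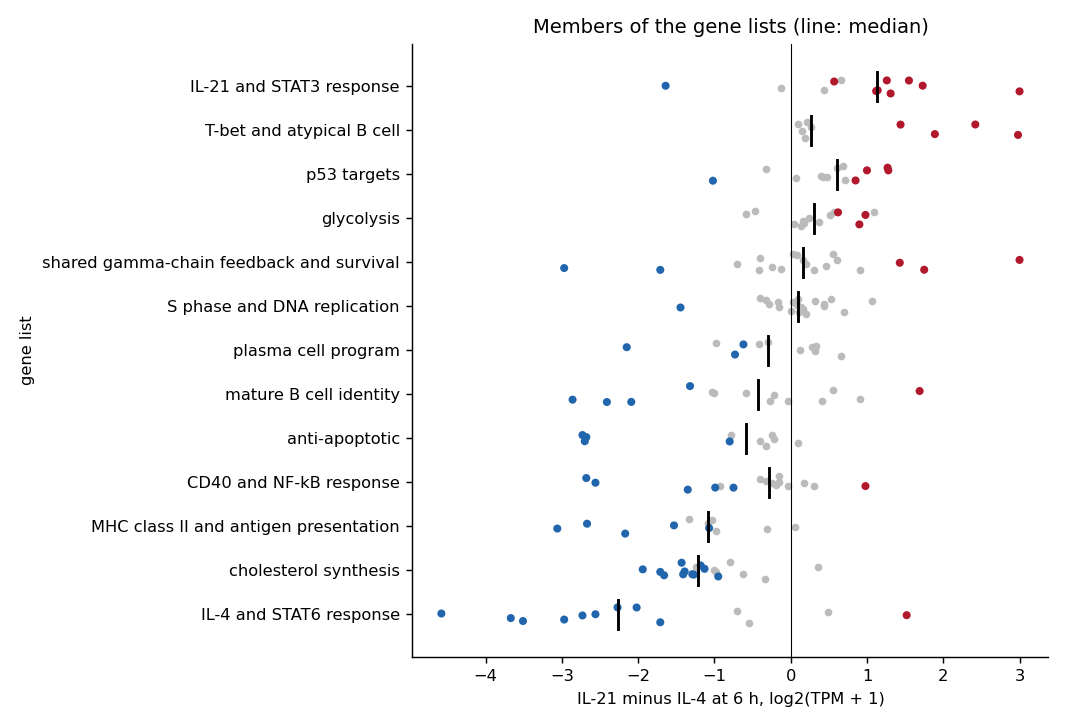
IL-21 minus IL-4 difference on the log2(TPM + 1) scale (x axis) for the measured members of 13 gene lists (y axis); coloured points are called, grey points are not, and black lines are list medians. The cholesterol list has a median of -1.21 and the IL-4 and STAT6 list one of -2.27, against 0.07 for all genes.

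Genes that both cytokines moved alike were found by a fixed rule: called and at least 2-fold in the same direction against anti-CD40 alone with each cytokine, not called between them, and with a 95% interval of the direct difference inside -1 to 1. Both effects use the same 3 anti-CD40 libraries, so errors in those libraries enter both. IL-21 by itself changed 1471 genes against anti-CD40 alone (12.1%; 7.43% higher and 4.68% lower) and IL-4 changed 491 (4.04%; 1.65% higher and 2.4% lower). At least 2-fold, IL-21 raised 3.59% and lowered 3.14%, and IL-4 raised 1.2% and lowered 1.51%. Of 151 genes moved at least 2-fold in the same direction by both, 85 met the whole rule, 11 raised and 74 lowered, while 26 also differed between the cytokines. Without replicate 1, 2 or 3 of anti-CD40 alone, 64, 80 or 79 genes met the rule.

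The genes raised by both included Fabp5, a fatty acid binding protein, at 12.5, 13.5 and 17.2 TPM alone, 58.7, 52.7 and 55 TPM with IL-4 and 50.5, 49.1 and 52.3 TPM with IL-21 (direct difference -0.13 ± 0.15, interval -0.43 to 0.18). Cd86, a costimulatory ligand, was at 11.8, 18.8 and 12.8 TPM alone, 55.6, 62.6 and 52.8 with IL-4 and 37.6, 49.4 and 31 with IL-21 (-0.55 ± 0.21, interval -0.99 to -0.10). Il7r, a receptor chain that pairs with the common gamma chain, was at 0.801, 0.587 and 0.441, 4.31, 3.1 and 3.74 and 5.36, 5.58 and 5.6 TPM (0.47 ± 0.16, interval 0.13 to 0.81). In Cd86 and Il7r the IL-4 and IL-21 libraries did not overlap, though neither difference was called.

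Ffar2, a receptor for short-chain fatty acids, Rmi2, a partner of the BLM helicase, and Gimap3, a GTPase of lymphocyte survival, complete the 6 largest rises by the same measure. Their direct differences were -0.07 ± 0.22, -0.12 ± 0.28 and 0.18 ± 0.28. Among the lowered genes, passing over unnamed gene models, the 6 largest by the smaller of the 2 effects were Nid1, Tmcc3, Cybb, Lst1, Gbp3 and Gpr174. Nid1, a basement membrane protein, went from 17.5, 10.8 and 10.0 TPM alone to 1.81, 1.25 and 0.773 with IL-4 and 1.33, 1.38 and 1.22 with IL-21 (0.05 ± 0.27, interval -0.50 to 0.60). Gbp3, an interferon-inducible GTPase, went from 61.9, 57.5 and 55.4 TPM to 12.3, 12.7 and 11.9 and 14.1, 17.1 and 13.7 TPM (0.26 ± 0.17, interval -0.09 to 0.60). Gpr174, a receptor for lysophosphatidylserine, went from 26.5, 28.4 and 28.2 TPM to 4.62, 5.9 and 6.69 and 6.82, 6.23 and 7.29 TPM (0.22 ± 0.21). For Cybb, the catalytic subunit of the phagocyte NADPH oxidase, the interval was -0.92 to 0.78, which leaves room for a difference in either direction; for Tmcc3 it was -0.58 to 0.97 and for Lst1 -0.96 to 0.33.

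Opposed genes, called and at least 2-fold in opposite directions against anti-CD40 alone, numbered 12. IL-21 raised and IL-4 lowered 4: Tnfrsf9 (2.98 with IL-21 and -1.16 with IL-4), Cd38 (2.52 and -1.38), Il18r1 (2.35 and -1.08) and Cytip (1.33 and -1.06). Cytip, a regulator of integrin adhesion, was at 168, 160.0 and 138 TPM alone, 70.8, 80.2 and 69.7 with IL-4 and 401, 384 and 389 with IL-21 (direct difference 2.40 ± 0.13, adjusted p = 1.32e-11). IL-4 raised and IL-21 lowered 8, the largest being Slc2a6 (2.38 with IL-4 and -1.79 with IL-21), Akap2 (2.26 and -1.82), Il4i1 (1.92 and -1.75) and Id1 (2.03 and -1.54). Without 1 of the 3 anti-CD40 libraries the first count was 3 to 5 and the second 5 to 9, the 5 without replicate 3.

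**Figure D4:**
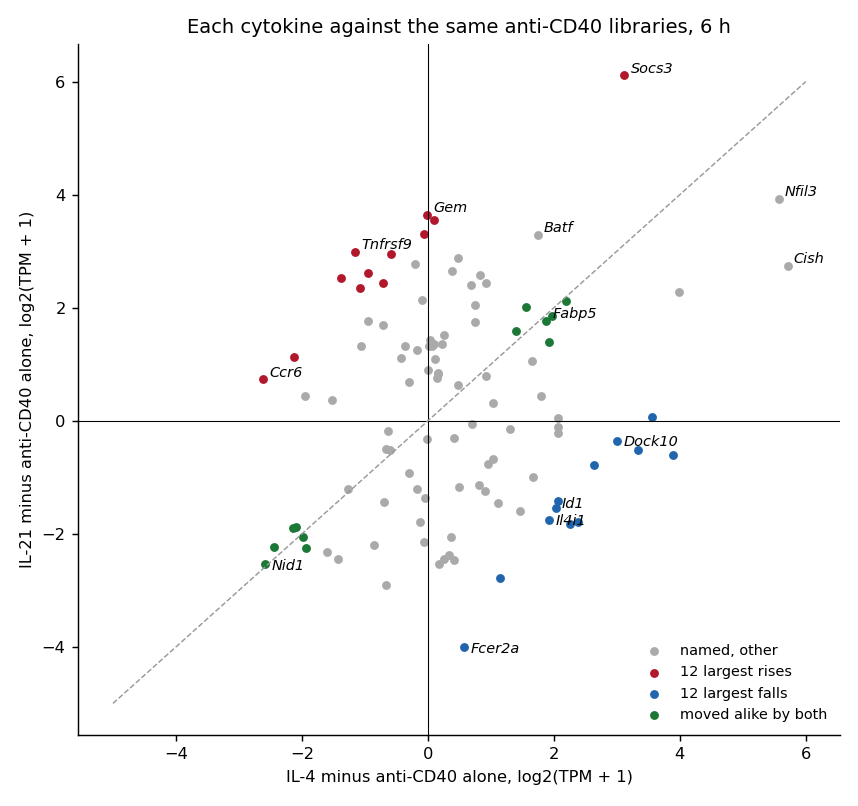
Effect of IL-4 (x axis) and of IL-21 (y axis) against the same 3 anti-CD40 libraries at 6 h, on the log2(TPM + 1) scale, for the named genes; the dashed line marks equal effects. Red and blue points are the 12 largest rises and falls between the cytokines, and green points are genes moved alike by both, which lie near the line because the rule chose them so.

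When both cytokines were given together, different genes took different sides. Feedback inhibitors stood near the higher of the single levels: Socs3 was at 503, 429.7 and 363 TPM (against IL-21 alone 0.16 ± 0.27, adjusted p = 0.968) and Cish at 104, 104 and 83.8 TPM (against IL-4 alone 0.06 ± 0.31, adjusted p = 0.986). The interval for Socs3 was -0.41 to 0.73 and for Cish -0.58 to 0.70. Batf exceeded both single cytokines at 654, 653 and 610.5 TPM, by 2.59 ± 0.12 over IL-4 (adjusted p = 1.94e-12) and 1.03 ± 0.12 over IL-21 (adjusted p = 4.1e-06). Fabp5 did so too at 107, 112 and 108 TPM (0.96 ± 0.15 over IL-4 and 1.09 ± 0.15 over IL-21), and so did Socs2, at 26.9, 9.36 and 9.85 TPM (2.28 ± 0.46 over IL-4, adjusted p = 0.00424, and 2.20 ± 0.46 over IL-21, adjusted p = 0.00512).

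Bcl2l11, Bcl2l1 and Ms4a1 lay nearer to IL-21 alone. Bcl2l11 was at 62.8, 58.9 and 58.1 TPM with both cytokines, above IL-4 (2.53 ± 0.23, adjusted p = 1.28e-07) and not called against IL-21 (interval -0.66 to 0.28). Bcl2l1 was at 11.9, 4.91 and 8.56 TPM, below IL-4 (-2.02 ± 0.31, adjusted p = 0.000227) and not called against IL-21 (0.70 ± 0.31, adjusted p = 0.318). Ms4a1 was at 99, 83.4 and 104 TPM, likewise below IL-4 (-1.97 ± 0.19) and not called against IL-21 (interval -0.28 to 0.53). Cflar did not lie there: its mean was 137 TPM with both cytokines, 155 with IL-4 and 88.2 with IL-21.

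Other genes took intermediate values. Cd38 was at 15.4, 13.5 and 12.9 TPM, below IL-21 alone (-1.33 ± 0.20, adjusted p = 0.000156) and above IL-4 alone (2.57 ± 0.20). Tnfrsf9 was at 14.6, 6.87 and 8.02 TPM (-2.03 ± 0.26 against IL-21 and 2.11 ± 0.26 against IL-4), and Tbx21 at 3.89, 4.21 and 3.75 TPM (-0.94 ± 0.21 and 2.04 ± 0.21). Lad1, at 6.19, 7.06 and 5.29 TPM, lay -2.48 ± 0.31 from IL-4 and 2.02 ± 0.31 from IL-21, and Id1, at 2.43, 0.799 and 1.22 TPM, was below IL-4 (-2.63 ± 0.27) and not called against IL-21 (adjusted p = 0.0572).

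Fcer2a and Ighg1 were also intermediate by their means, and only their difference from IL-21 alone was called. All Ighg1 libraries with both cytokines lay between those of the single cytokines. Each Fcer2a library with both cytokines was below the IL-4 library of the same replicate number. Fcer2a was at 401, 132 and 102 TPM with both, above IL-21 alone (2.86 ± 0.58, adjusted p = 0.00404) and not called against IL-4 (-1.72 ± 0.58, adjusted p = 0.159). Ighg1 was at 13.9, 15 and 17.2 TPM (2.74 ± 0.42 against IL-21, adjusted p = 0.000282; -0.77 ± 0.42 against IL-4, not called), and Ighe at 1.52, 1.72 and 1.26 TPM, below IL-4 (-1.23 ± 0.30, adjusted p = 0.0254) and not called against IL-21 (1.04 ± 0.30, adjusted p = 0.0548). Over all genes, both cytokines differed from IL-4 alone in 308 (2.54%), 152 of them higher (1.25%) and 156 lower (1.28%). They differed from IL-21 alone in 505 (4.16%), 154 higher (1.27%) and 351 lower (2.89%).

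The gap between the cytokines changed with time. The change from 6 h to 24 h in the IL-21 minus IL-4 difference was called for 1867 genes (15.4%), 1608 towards IL-21 (13.2%) and 259 towards IL-4 (2.13%). At 24 h itself, 46.3% of genes differed between the cytokines. The median change over all tested genes was 0.45, and after median-of-ratios rescaling, which brings that median to -0.02, the split was 1015 and 990. The count also rested on single libraries: it was 4995 without replicate 1 of IL-4 at 24 h, 2828 without replicate 3 of IL-21 at 24 h, and 862 and 826 without replicates 2 and 3 of IL-4 at 24 h. It was 1202 and 884 without replicates 1 and 2 of IL-21 at 24 h, 1006 without replicate 2 of IL-21 at 6 h and 1157 without replicate 1 of IL-4 at 6 h. Genes among the largest changes in each direction follow, with values not corrected for this median shift. Its part differed by gene: rescaling moved Cr2 from 4.59 to 4.0 and Epb41l4b from -3.72 to -3.81.

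Vim and Scimp were not called at 6 h and differed at 24 h. Vim (vimentin) had a 24 h difference of 3.53 ± 0.28 against -0.61 ± 0.28 at 6 h, where it was called only after rescaling (adjusted p = 0.0142) and in the blocked fit of the 6 libraries, and Scimp, an adaptor of MHC class II signalling, one of 4.17 ± 0.22 against 0.07 ± 0.22. Cr2 turned from -2.86 ± 0.31 at 6 h to 1.73 ± 0.31 at 24 h, where IL-4 libraries held 12.8, 5.03 and 3.76 TPM and IL-21 libraries 20.2, 30.9 and 20.2 TPM.

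In the other direction, Socs2, another SOCS inhibitor, stood at 42.8, 38.1 and 59.2 TPM with IL-4 and 0.638, 2.28 and 0.342 TPM with IL-21 at 24 h, a change of -4.68 ± 0.65 (adjusted p = 4.56e-05). Slamf7 was at 150.2, 150.3 and 136 TPM with IL-4 at 24 h against 6.63, 7.99 and 6.7 TPM with IL-21 (-3.55 ± 0.24, adjusted p = 6.3e-09). Epb41l4b, high with IL-21 at 6 h, was at 0.232, 0.258 and 0.26 TPM at 24 h (-3.72 ± 0.34). Hist1h2ah, a histone gene with near-identical copies, changed by -2.96 ± 0.92 (adjusted p = 0.0338), a call that held in 5 of 12 fits that left out 1 library.

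The feedback pair drew further apart. Socs3 reached 707, 748 and 503 TPM with IL-21 at 24 h against 14.4, 7.45 and 6.47 TPM with IL-4 (change 3.03 ± 0.39, adjusted p = 1.88e-05), and Cish stood at 1.01, 1.03 and 0.374 TPM with IL-21 against 88.2, 37.1 and 27.7 TPM with IL-4 (change -1.72 ± 0.43, adjusted p = 0.0114). Bcl6, not called at 6 h, differed at 24 h by 3.03 ± 0.25, with 5.84, 2.29 and 1.35 TPM with IL-4 and 29.6, 36.9 and 23.7 TPM with IL-21. Batf, called at 6 h, was not called at 24 h, at 108, 104 and 97 TPM with IL-4 and 101, 95 and 89.3 TPM with IL-21 (difference -0.12 ± 0.12, interval -0.36 to 0.13).

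**Figure D5:**
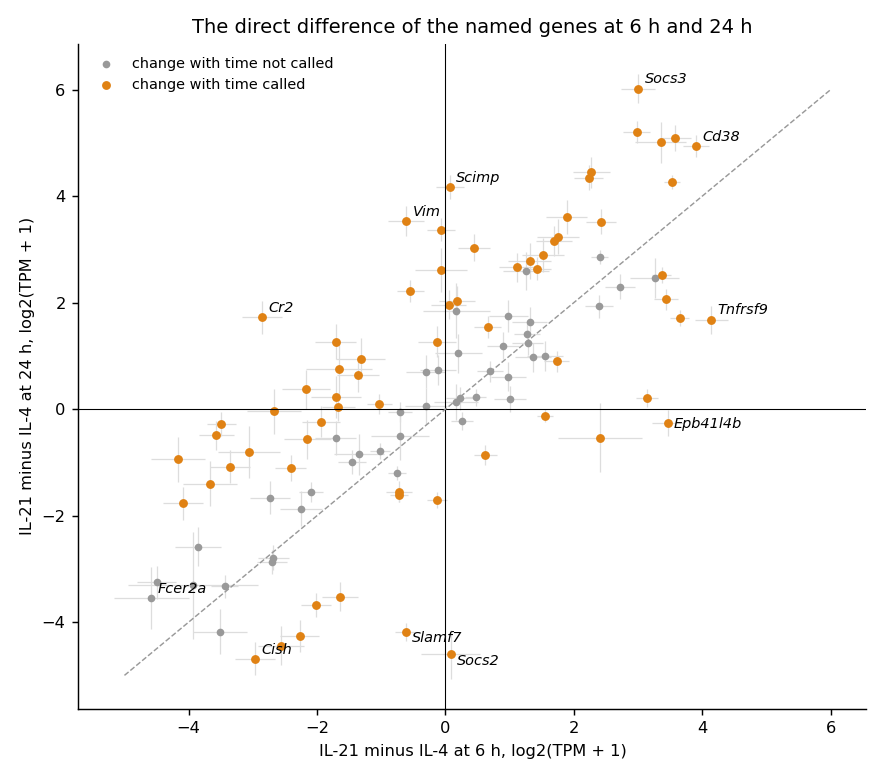
IL-21 minus IL-4 difference at 6 h (x axis) and at 24 h (y axis) on the log2(TPM + 1) scale for the named genes, with bars of 1 standard error; the dashed line marks no change with time. Orange points have a called change, among them Cr2 at 4.59 above the line and Socs2 at -4.68 below it, and the median of all genes lies 0.45 above the line.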

How the data were processed

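Per the labels, polyadenylated RNA of splenic B cells was sequenced. Per the submitters' processing notes, Salmon 1.9.0 and GRCm38/mm10 were used, and the authors deposited TPM values, which sum to 766384 to 825365 per library over the listed genes. TPM keeps no sequencing depth, so the depth is unknown. Symbols came from GENCODE M21, which named 35301 IDs.

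Group means were estimated from log2(TPM + 1) over all 27 libraries in limma 3.58.1 (run under R 4.3.3), using a variance trend and 18 residual degrees of freedom, and the script was tested on simulated data. The spread is pooled over all groups. Replicate numbers pair the libraries by the correlation of deviations from group means (0.173 to 0.353 for same numbers, -0.218 to 0.02 for others), so a replicate block was an alternative beside pseudocount, filter, scaling, variance model, sample sets and leaving out libraries.

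Genes named are the 12 largest differences each way (at least 5 TPM, no overlap), a panel of 18, up to 3 called members of each of 31 lists with those of opposite direction, the largest shared and opposed genes, and the 4 largest changes with time each way; some of these genes and list members are not reported here. Members and lists were chosen with earlier results of these data known; list members outside this rule were named after their values were seen. RefSeq promoter windows (GRCm38.p6) matched 84 of the 109 named genes by symbol.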

Additional observations from a re-analysis of the deposited data

Results flagged for a closer look

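The change from 6 h to 24 h in the IL-21 minus IL-4 difference was tested directly, and 30 of the genes given above passed the threshold (limma, adjusted p below 0.05). The values below are 24 h minus 6 h on the log2(TPM + 1) scale, ± SE.

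Among genes that were higher with IL-21 at 6 h or about level, the difference moved towards IL-21 for Cd38 (1.05 ± 0.28), Ier5l (1.52 ± 0.34), Id2 (0.73 ± 0.18), Ccr6 (1.66 ± 0.56), Socs3 (3.03 ± 0.39), Bcl6 (2.58 ± 0.36), Prdm1 (0.88 ± 0.30), Tbx21 (2.22 ± 0.30) and Scimp (4.10 ± 0.31). Among genes with a negative difference at 6 h, it moved up for Slc2a6 (3.22 ± 0.59), Akap2 (2.32 ± 0.44), Il4i1 (2.27 ± 0.59), Id1 (3.08 ± 0.39), Snn (3.21 ± 0.33), Dock10 (2.28 ± 0.44), Pim1 (1.40 ± 0.41), Cr2 (4.59 ± 0.44) and Vim (4.14 ± 0.40). The median change over all tested genes was 0.45, in the same direction, and after median-of-ratios rescaling the changes of Cd38 (adjusted p = 0.156), Id2 (0.74), Ccr6 (0.0958) and Prdm1 (0.095) were not called.

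The difference moved towards IL-4 for Tnfrsf9 (-2.46 ± 0.37), Gem (-1.93 ± 0.22), Epb41l4b (-3.72 ± 0.34), Il18r1 (-1.38 ± 0.27), Il1r1 (-0.84 ± 0.21), Il1a (-2.92 ± 0.25), Cish (-1.72 ± 0.43), Batf (-1.67 ± 0.16), Il10 (-0.83 ± 0.28), Slamf7 (-3.55 ± 0.24), Socs2 (-4.68 ± 0.65) and Hist1h2ah (-2.96 ± 0.92). Single libraries decided some of these calls: of 12 fits that each left out 1 library, the change was called in 4 for Ccr6, 3 for Prdm1, 3 for Il10, 5 for Hist1h2ah, 6 for Pim1, 10 for Cd38 and 11 for Il4i1. The part of library differences in these changes was not tested.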

How the results depend on the processing

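The count of genes that differed between IL-21 and IL-4 at 6 h, 1019, became 2814 with no filter, 583 with a filter of 5 TPM and 1729 without mitochondrial, ribosomal protein and pseudogene transcripts, and 724 to 914 when 1 library was left out. With the replicate block it was 1124, of which 1001 were also called without it, and none of the genes the naming rule selects changed its call; of the other list members 16 gained a call, H2-Aa (adjusted p = 0.0334) and H2-Ab1 (0.0234) among them, and 0 lost one. A fit of only the 6 libraries compared, without the block, ended the calls of Il21r (0.0623), Slamf7 (0.0975), Ldha (0.0809), Pkm (0.0724), Slc16a1 (0.182), Dhcr7 (0.213), Ifit1 (0.0713) and Hist1h2ah (0.0557). In a fit of only the 6 libraries compared with the block, Slc16a1 (adjusted p = 0.0567), Dhcr7 (0.0999) and Ifit1 (0.0846) lost theirs and Vim gained one (0.0437). Without replicate 3 of both groups, whose mitochondrial share is lower, 752 were called, 691 of them among the 1019. Of 86 named genes called, 67 were called under every alternative and 19 lost the call under some, none with a reversed sign. The change with time, 1867 genes, became 1151 without replicate 3 of both groups at 6 h, and 826 to 4995 when 1 library was left out. The IL-21 effect, 1471, became 3212 with no filter, 2258 without mitochondrial, ribosomal protein and pseudogene transcripts, and 939 to 1262 with 1 library left out, with 974 when replicate 2 of IL-21 and 939 when replicate 1 of anti-CD40 alone was the one omitted. The IL-4 effect, 491, became 763 under median-of-ratios rescaling and 365 to 408 with 1 library left out. Both cytokines against IL-4, 308, became 552 under that rescaling and 225 to 250. Both against IL-21, 505, became 1778 with no filter, 250 with a filter of 5 TPM, 965 without the named transcripts, and 287 to 515, with 287 without replicate 2 of IL-21 and 292 without replicate 1 of both cytokines. The causes of these moves were not tested. Fits that left out a library kept at least 2 per group. The unknown depth limits the low genes.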
